A study of Mus musculus with 30 samples.

Results

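The expression of 10 genes that govern entry into the cell cycle was followed in mouse colon: the D cyclins Ccnd1, Ccnd2 and Ccnd3, their kinases Cdk4 and Cdk6, the CDK inhibitors Cdkn1a (p21), Cdkn1b (p27) and Cdkn2b (p15), the kinase Wee1 and the transcription factor Myc. They were taken by name from a table of 46078 genes and matched by gene identifier, and all 10 passed the filter on low counts in every comparison. The study asked how a high-fat diet (HFD), sex and estradiol (E2) shape the colon. RNA from colon tissue of C57BL/6J mice (distal colon, by the study's methods) was sequenced in 30 libraries, 6 in each of 5 groups: females on control diet with vehicle (CD F), males on control diet with vehicle (CD M), females on HFD with vehicle (HFD F), males on HFD with vehicle (HFD M), and males on HFD given estrogen (HFD+E2 M). Feeding lasted 13 weeks, and all mice received 9 intraperitoneal injections during the last 3 weeks, of vehicle or of E2 at 0.5 mg/kg. The females kept their ovaries and their estrous stage was not recorded, and no female group with E2 was analysed here. The study's methods call the 6 libraries of a group biological replicates.

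D cyclins are the link between growth signals and the cell cycle: they are made in response to mitogens, bind Cdk4 or Cdk6, and the active kinase phosphorylates the retinoblastoma protein, which frees E2F factors to switch on S phase genes. Cdkn2b binds Cdk4 and Cdk6 themselves, while Cdkn1a and Cdkn1b bind cyclin and kinase complexes, Cdkn1a mostly downstream of p53 and of differentiation signals. Wee1 acts later, since it phosphorylates Cdk1 and holds back entry into mitosis, and it is also a known output of the circadian clock. Myc, a target of Wnt signaling in colonic crypts, drives growth and ribosome synthesis, and Ccnd1 is a further Wnt target. In the colon, epithelial division takes place in the crypts, and differentiated surface cells carry more of the inhibitors.

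Total counts per library ran from 8667177 to 17243712, with a median of 11530916. Each member therefore rested on many reads, from 57 counts for Myc in its lowest library to 4747 for Ccnd2 in its highest. No pair of libraries in a group agreed within sampling noise (the lowest chi-square per degree of freedom was 7.79). The tissue was not of a uniform make-up. Markers of stratified squamous epithelium, such as Krt5 and Krt13, summed to more than 100 TPM in 4 of the 6 HFD F and 2 of the 6 HFD M libraries, and reached no more than 20.3 TPM in any library of the other groups. Of 10 smooth muscle markers, all 10 were lower in CD F than in CD M, with summed levels of 2630 to 4090 TPM in CD F and 4150 to 6890 TPM in CD M. Of 10 B cell markers, 5 were higher in CD F than in CD M (14.7 to 69.1 TPM against 0.887 to 55.4 TPM). Of 7 goblet cell markers 4 were higher and of 7 fibroblast markers 4 were lower in CD F than in CD M. Of 10 colonocyte markers 3 were lower and 1 was higher, and of 7 macrophage markers 2 were lower and 1 was higher. The 2 T cell markers tested and 1 of 2 plasma cell markers tested were higher. Lower were 1 of 6 endothelial and 1 of 8 enteric neuron and glia markers. Over all genes tested, 9.15% passed the same limits, which are defined below. The part of the markers in the results on sex was tested only where a score of them is named as a covariate. All 10 colonocyte markers were found, with summed levels of at least 958 TPM in every library. In whole tissue, fewer cells of a type and less RNA per cell cannot be told apart.

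Per length, Ccnd2 was the most abundant of the 10 mRNAs, with a mean of 55.6 TPM over the 30 libraries. Cdkn1a (35.9 TPM), Cdk4 (31.2 TPM) and Cdkn1b (22 TPM) came next. Wee1 (6.33 TPM) and Myc (6.63 TPM) were lowest. Among the D cyclins, Ccnd2 made up 73.5% ± 3.79 (SD, n = 6) of the summed TPM in CD M and between 66.8% and 69.4% on average in the other groups. TPM and counts did not rank the libraries alike for every member. The Pearson r between log2 TPM and the log2 of the normalised count over the 30 libraries was 0.95 for Wee1, but 0.63 for Ccnd3 and 0.49 for Cdk6, and for Cdk6 the TPM given per count differed by up to 2.91-fold between libraries. Comparisons between groups are therefore given as normalised counts (CPM, read counts scaled by library size and TMM normalisation).

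**Figure D1:**
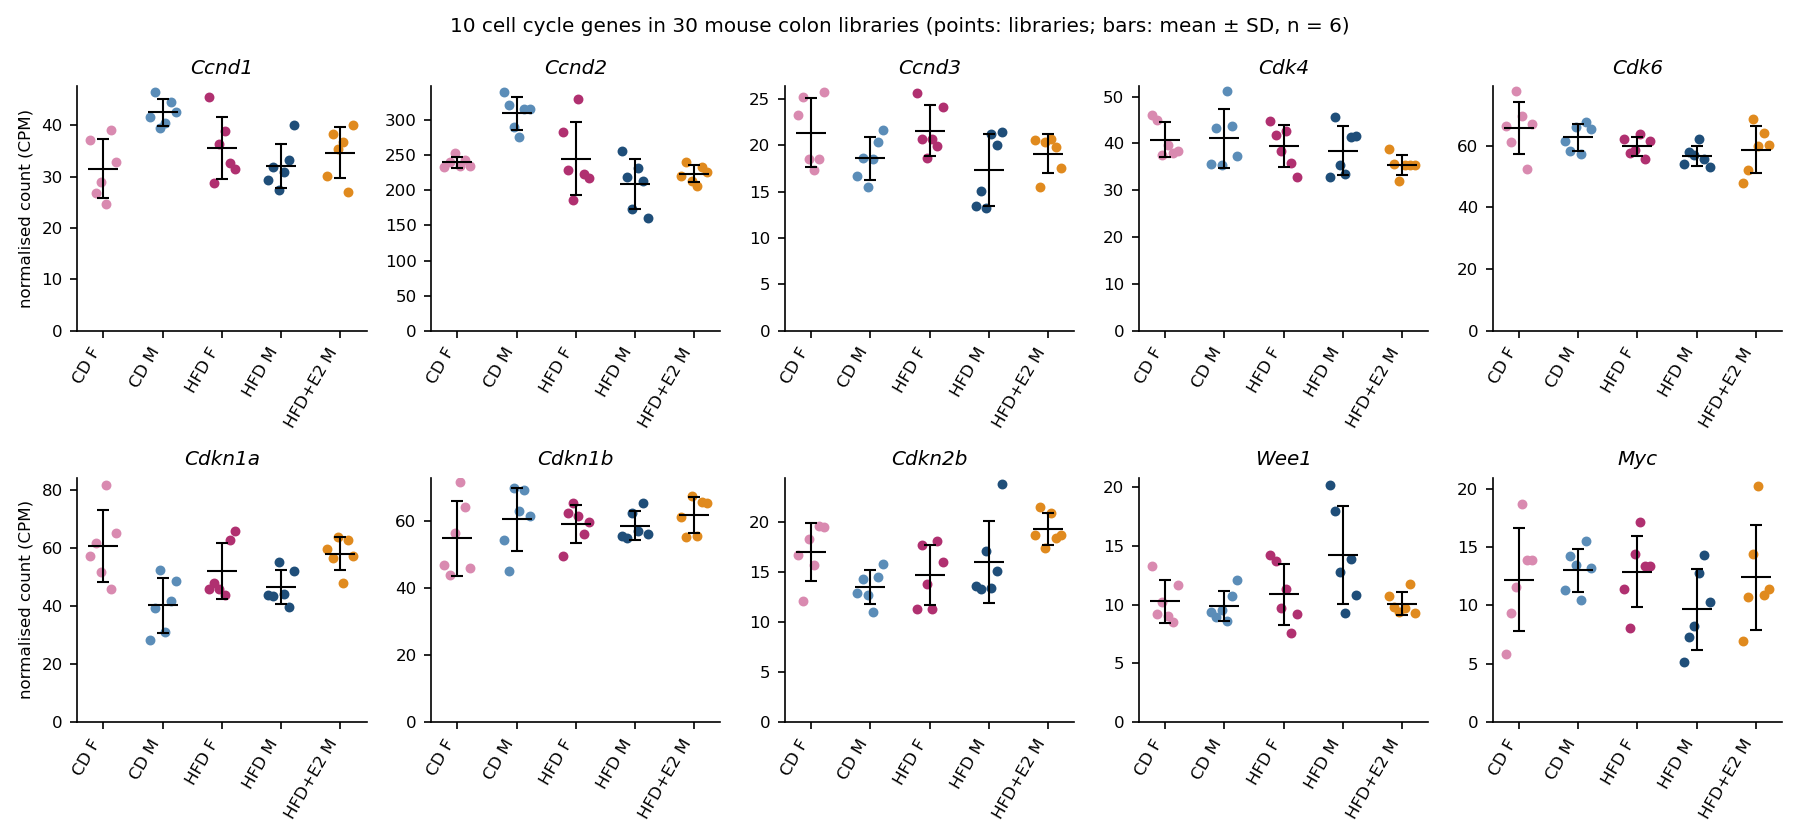
Normalised count (CPM, vertical axes from 0) of the 10 genes in each library, by group, with the mean and SD of 6 libraries per group. Ccnd1 and Ccnd2 were highest in CD M, where Cdkn1a and Cdkn2b were lowest, and Wee1 was highest and most spread in HFD M.

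Across the 10 members, 8 of the 9 pairwise calls by the threshold involved the CD M group. A gene was counted as changed at an unadjusted p under 0.05 in edgeR's quasi-likelihood test with a log2 fold change beyond 0.4 in either direction, the limits the study used, and calls after Benjamini-Hochberg adjustment over all genes tested (adjusted p under 0.05, with no fold limit) are given beside them. Between CD F and CD M, 2 of 10 members passed (Ccnd1 lower and Cdkn1a higher in females), against 9.15% of all genes tested, and 2 of 10 passed the adjustment (Ccnd1 and Ccnd2), against 2.92% of all genes. Between HFD M and CD M, 3 of 10 passed (Ccnd1 and Ccnd2 lower, Wee1 higher on HFD), against 2.9% of all genes. After adjustment, no member and no gene passed in that comparison (0% of all genes, edgeR), while DESeq2 called 26 genes and 1 member, Ccnd2 (adjusted p = 0.00312), and edgeR gave 3 members and 904 genes an unadjusted p under 0.05. From the same libraries, the study had already listed Ccnd1, Ccnd2, Wee1 and Myc as regulated by HFD in males. It had also named Ccnd1 for the sex difference on CD and Wee1 as lowered by E2. The 10 genes and the gene lists used below were chosen with earlier results of these data known. Shares of members or of list genes, here and below, therefore cannot be read as an excess over all genes.

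With E2 in HFD males, 1 of 10 members passed (Wee1, lower), against 5.87% of all genes, and none passed the adjustment, which 0.00666% of all genes did. In that comparison edgeR gave 2 members an unadjusted p under 0.05, and DESeq2 gave no member an adjusted call. Between HFD+E2 M and CD M, 3 of 10 passed (Ccnd2 lower, Cdkn1a and Cdkn2b higher), against 5.99% of all genes, and 1 passed the adjustment (Ccnd2), against 0.212% of all genes. Between HFD F and HFD M, no member passed, against 3.09% of all genes. None passed the adjustment there either, against 0.0988% of all genes, with 1 member at an unadjusted p under 0.05 in edgeR and 0 in DESeq2. Between HFD F and CD F, no member passed either limit, against 3.67% of all genes for the first and 0.0199% for the adjustment, and in both edgeR and DESeq2 0 members had an unadjusted p under 0.05. For the interaction of sex and diet, which asks whether the diet effect differed between females and males, 3 of 10 members passed (Ccnd1, Ccnd2 and Cdkn2b), against 5.18% of all genes. No member and no gene passed the adjustment for that term (0% of all genes, edgeR), where DESeq2 called 7 genes and 0 members and edgeR gave 3 members an unadjusted p under 0.05. CD M entered 3 of the 6 pairwise comparisons and HFD M entered 3, so these counts are not independent of each other.

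**Figure D2:**
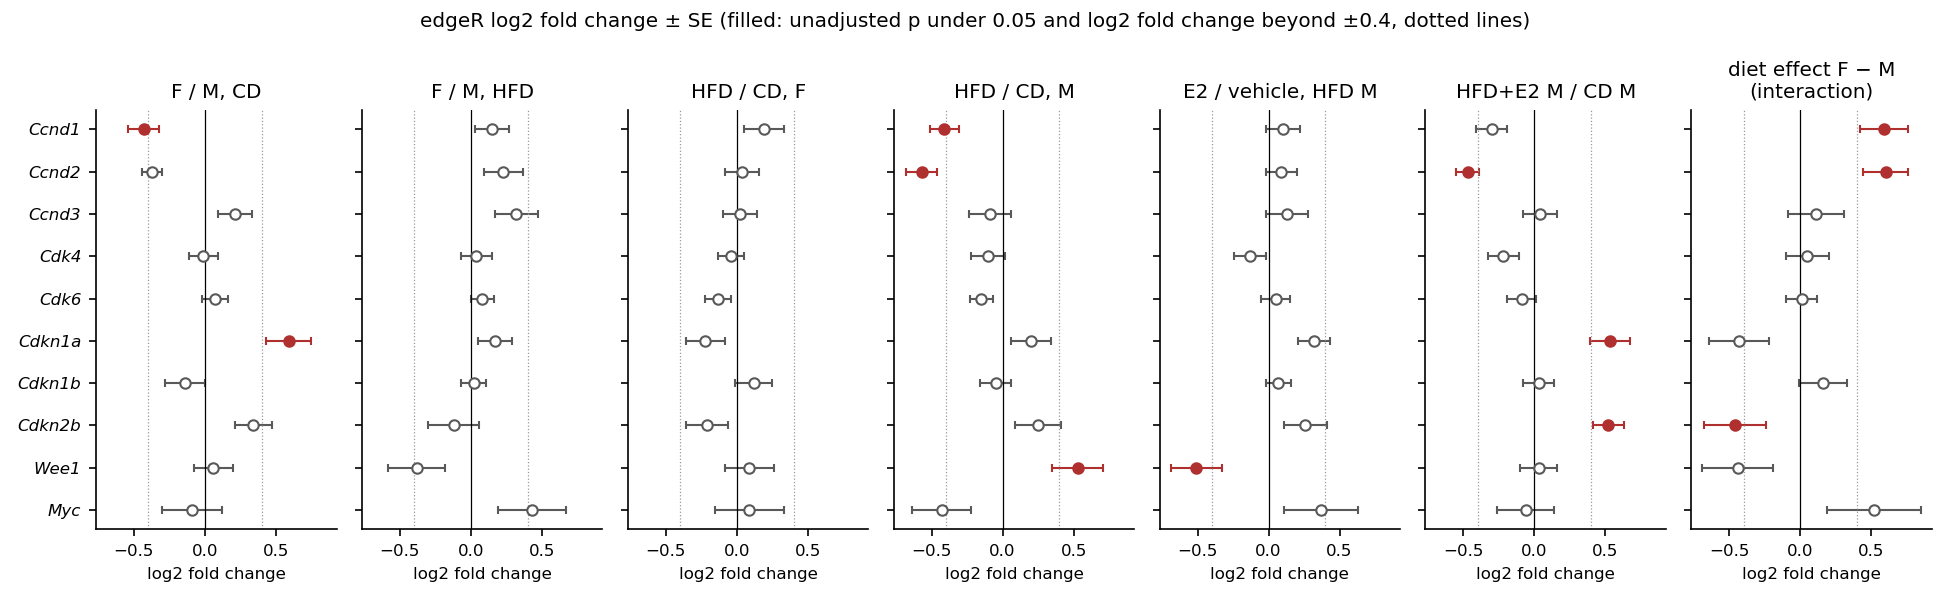
Log2 fold change (horizontal axes, edgeR estimate ± SE) of each gene in the 6 pairwise comparisons and in the interaction of sex and diet, with dotted lines at a log2 fold change of 0.4 in both directions. Filled points passed the threshold, while the point of Ccnd2 in CD F against CD M is unfilled at -0.37 although its adjusted p was 0.00987.

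Ccnd2, the most abundant D cyclin of the tissue, separated CD M from 3 other groups. It lay between 276 and 340 CPM in CD M (median 316), between 233 and 253 CPM in CD F (median 238), between 160 and 256 CPM in HFD M (median 216), between 207 and 240 CPM in HFD+E2 M (median 224) and between 187 and 331 CPM in HFD F (median 227). Every CD M library was above every library of CD F, HFD M and HFD+E2 M, and overlapped with HFD F alone. Against CD M, the log2 fold change was -0.57 in HFD M (SE 0.11, edgeR adjusted p = 0.233), -0.47 in HFD+E2 M (SE 0.08, adjusted p = 0.0157) and -0.37 in CD F (SE 0.07, adjusted p = 0.00987). An exact permutation test of 6 against 6 libraries, two-sided, gave p = 0.00216 for each of the 3, the smallest that this number of libraries allows. HFD+E2 M and HFD M overlapped and differed by 0.09 (SE 0.11, exact permutation p = 0.344), and HFD F and CD F by 0.04 (SE 0.12, exact permutation p = 0.963).

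Ccnd1, the D cyclin known as a Wnt target, was also highest in CD M. It ranged from 39.5 to 46.6 CPM in CD M (median 42.2) and from 24.7 to 39.1 CPM in CD F (median 30.8), so that these groups did not overlap. In HFD M it ranged from 27.5 to 40 CPM (median 31.4), in HFD+E2 M from 27.1 to 40.1 CPM (median 36.1) and in HFD F from 28.8 to 45.6 CPM (median 34.5). Only the highest library of HFD M and of HFD+E2 M reached into the CD M range. Ccnd1 was lower in CD F than in CD M by a log2 fold change of -0.43 (SE 0.11, edgeR adjusted p = 0.0484; exact permutation p = 0.00216) and lower in HFD M than in CD M by -0.41 (SE 0.10, edgeR adjusted p = 0.49; exact permutation p = 0.00433). In HFD+E2 M against CD M the value of -0.30 (SE 0.11, edgeR adjusted p = 0.292; exact permutation p = 0.00433) stayed inside the fold limit. When each library was left out in turn, the adjusted call of Ccnd1 between CD F and CD M held in 3 of 12 fits (without CD F replicate 1 or 5 or CD M replicate 1), with edgeR adjusted p from 0.0226 to 0.111, and that of Ccnd2 held in 12 of 12. For HFD M against CD M, Ccnd1 passed the threshold in 8 of 12 such fits, and without CD M replicate 2 or 5 or HFD M replicate 1 or 3 it stood between -0.39 and -0.37, inside the fold limit.

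Groups without overlap were also counted over the whole table. Between CD F and CD M, 2 of 10 members (Ccnd1 and Ccnd2) showed no overlap of log2 CPM, against 2.16% of all genes tested. Between HFD M and CD M it was 1 of 10 (Ccnd2), against 0.374% of all genes, and between HFD+E2 M and CD M 2 of 10 (Ccnd2 and Cdkn2b), against 0.94%. No member was free of overlap between HFD F and HFD M, HFD F and CD F, or HFD+E2 M and HFD M, where 0.376%, 0.232% and 0.426% of all genes were.

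The diet effect on both D cyclins differed between the sexes by the unadjusted limits. For Ccnd1, the log2 change on HFD was 0.19 in females (SE 0.14) and -0.41 in males, a difference of 0.59 (SE 0.17, edgeR adjusted p = 0.458). For Ccnd2 it was 0.04 in females and -0.57 in males, a difference of 0.60 (SE 0.16, edgeR adjusted p = 0.41). Both interactions passed the threshold in all 24 fits that left out a single library. Most of the squamous signal was in HFD F. Without the 6 libraries above 100 TPM of its markers, which left 2 of HFD F and 4 of HFD M, the difference for Ccnd2 was 0.52 (SE 0.17) and past the threshold, and that for Ccnd1 was 0.32 (SE 0.22) and no longer past it. With the squamous score as a covariate in the fit of all 24 libraries they were 0.52 and 0.48.

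Smooth muscle and B cell markers moved with sex on CD, as given above. With the smooth muscle score as a covariate, the CD F to CD M difference was -0.42 for Ccnd2 (edgeR adjusted p = 0.0425) and -0.50 for Ccnd1 (edgeR adjusted p = 0.111), and with the B cell score it was -0.42 for Ccnd2 (edgeR adjusted p = 0.062) and -0.56 for Ccnd1 (edgeR adjusted p = 0.124). The sizes were no smaller with either score in the fit, while the adjusted calls of Ccnd1 were lost with both and that of Ccnd2 with the B cell score. The call of Ccnd1 was also lost with the squamous score (edgeR adjusted p = 0.0803). That of Ccnd2 was lost with all 30 libraries in one fit (edgeR adjusted p = 0.0617). The smooth muscle score itself differed by sex, with a mean of 8.86 in CD F and 9.47 in CD M. A fit with it cannot fully separate the score from sex. Goblet cell, fibroblast and colonocyte scores were not fitted. Between HFD M and CD M, 1 of 10 smooth muscle markers was lower and no B cell marker passed. There, Ccnd2 was at -0.61 and Ccnd1 at -0.44 with the smooth muscle score, and at -0.64 and -0.40 without the 2 HFD M libraries rich in squamous markers, where Ccnd1 no longer passed the fold limit.

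Ccnd3, the D cyclin typical of lymphocytes and differentiated cells, did not have the order of Ccnd1 and Ccnd2. Its group means lay between 17.4 CPM in HFD M and 21.6 CPM in HFD F, all groups overlapped, and no comparison passed the threshold. Its largest difference was between HFD F and HFD M (log2 fold change 0.32, SE 0.15, edgeR adjusted p = 0.872; exact permutation p = 0.0736). On the TPM scale its direction turned: with E2 in HFD males it stood at 0.13 by counts (edgeR adjusted p = 0.738) and at -0.49 by log2(TPM + 0.1) (limma adjusted p = 0.504), where the median of all genes was itself shifted by -0.16. The gene Bysl overlaps Ccnd3 by 361 bases on the opposite strand, with a mean count of 90.5 against 225.0 for Ccnd3, and whether reads were counted by strand was not given in the sources used here. Oraov1 overlaps Ccnd1 by 818 bases in the same way, with a mean count of 129.6 against 406.5.

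**Figure D3:**
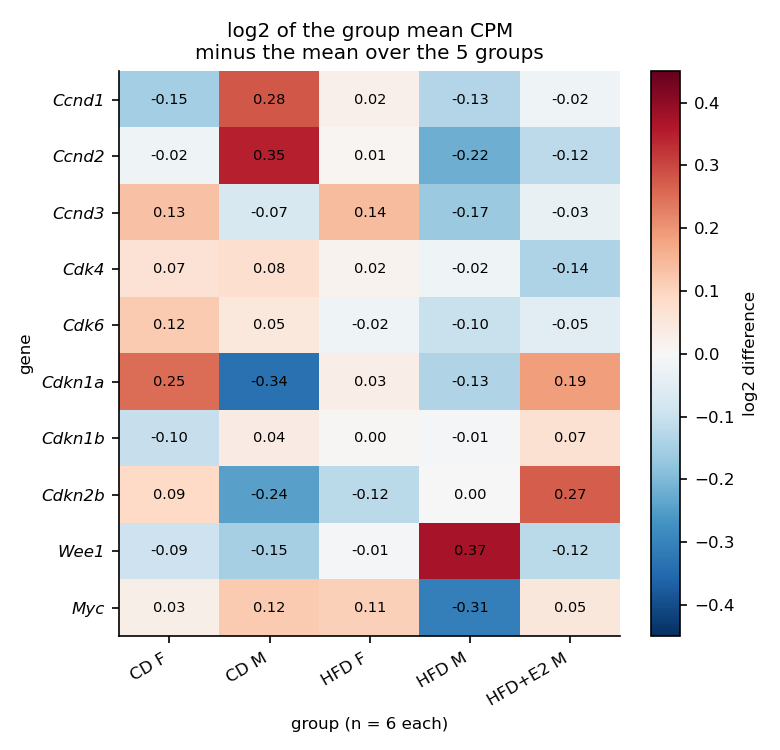
Log2 of each gene's mean CPM per group minus its mean over the 5 groups (columns, 6 libraries each; rows, genes; colour and number show the difference). Ccnd2 was at 0.35 and Ccnd1 at 0.28 in CD M, where Cdkn1a was at -0.34 and Cdkn2b at -0.24, and Wee1 was at 0.37 in HFD M.

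The kinases that the D cyclins activate differed little between groups. Cdk4 averaged between 35.4 CPM (HFD+E2 M) and 41.1 CPM (CD M), and Cdk6 between 56.6 CPM (HFD M) and 65.7 CPM (CD F). No comparison of either passed the threshold in edgeR. The lowest p-values in the exact permutation test were those of Cdk4 in HFD+E2 M against CD M (log2 fold change -0.22, SE 0.11, exact permutation p = 0.0584) and of Cdk6 in HFD M against CD M (-0.15, SE 0.08, exact permutation p = 0.026). Tspan31 overlaps Cdk4 by 604 bases on the opposite strand with a mean count of 353.5 against 447.7, the closest such pair of the set, so the Cdk4 level is uncertain if strand was not used.

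Cdk4 is known as a direct target of Myc, whose preferred site is the E-box CACGTG, a motif that reads the same on both strands. Promoter windows of 250 bases before the start site were at hand for 6 of the 10 members (8 windows in all; Ccnd1, Ccnd2, Wee1 and Myc had none). The motif was in 2 of these 8 windows, against 6.02% of the 32851 windows of the RefSeq table (GRCm38.p6). The Cdk4 window, shown because it held 4 copies, where 7 windows of the whole table (0.0213%) held 4 or more, lies on the plus strand at chr10:127063285-127063534, and capitals mark the motif.
Cdk4 promoter: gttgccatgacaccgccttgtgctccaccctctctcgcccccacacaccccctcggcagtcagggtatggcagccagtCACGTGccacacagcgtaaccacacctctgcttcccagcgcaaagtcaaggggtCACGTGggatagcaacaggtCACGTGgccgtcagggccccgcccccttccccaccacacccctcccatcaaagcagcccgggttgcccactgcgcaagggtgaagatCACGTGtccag
Relative to the start site, the copies begin at -172, -118, -98 and -11. Cdk6 had 1 copy, which begins at -220. Across the 30 libraries, after subtraction of the group means, the r between Cdk4 and Myc was -0.23.

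The inhibitors Cdkn1a and Cdkn2b were lowest in CD M, the group in which Ccnd1 and Ccnd2 were highest. Cdkn1a, the p53 target p21, ranged from 28.2 to 52.4 CPM in CD M (median 40.6), from 46 to 81.6 CPM in CD F (median 59.6), from 43.7 to 65.7 CPM in HFD F (median 46.9), from 39.5 to 55 CPM in HFD M (median 44.1) and from 47.8 to 63.8 CPM in HFD+E2 M (median 58.4). CD M overlapped with every other group, but 4 of 6 CD F libraries and 5 of 6 HFD+E2 M libraries were above all of CD M. Cdkn1a was higher in CD F than in CD M by 0.59 on the log2 scale (SE 0.16, edgeR adjusted p = 0.0601; exact permutation p = 0.0108), and higher in HFD+E2 M than in CD M by 0.53, or 1.44-fold (SE 0.14, edgeR adjusted p = 0.121; exact permutation p = 0.00649). With E2 in HFD males, 5 of 6 libraries were above all vehicle libraries, and the log2 difference of 0.32 (SE 0.11, edgeR adjusted p = 0.455; exact permutation p = 0.013) was inside the fold limit. Both larger differences held in all 12 fits with a library left out, and stood at 0.70 and 0.53 with the smooth muscle score and at 0.83 and 0.71 with the B cell score. The adjusted p of Cdkn1a between CD F and CD M depended on the fit. It was 0.0181 in DESeq2, and in edgeR 0.0186 with all 30 libraries in one fit and 0.0248 with the squamous score. In edgeR it was 0.0833 with no filter on low counts, 0.189 with the smooth muscle score and 0.102 with the B cell score.

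Cdkn2b, which encodes the Cdk4 and Cdk6 inhibitor p15, ranged from 11 to 15.8 CPM in CD M (median 13.6) and from 17.4 to 21.5 CPM in HFD+E2 M (median 18.7), with no overlap. Its other groups lay between, at 12.1 to 19.6 CPM in CD F (median 17.5), 11.3 to 18.1 CPM in HFD F (median 14.9) and 13.3 to 23.8 CPM in HFD M (median 14.3). The top value of HFD M came from replicate 6, and the other 5 libraries of that group stayed near the CD M range. Cdkn2b was higher in HFD+E2 M than in CD M by 0.52, or 1.43-fold (SE 0.11, edgeR adjusted p = 0.0618; exact permutation p = 0.00216), and by 0.51 to 0.55 with the squamous, smooth muscle or B cell score as a covariate. It was above the CD M mean by 0.34 in CD F (exact permutation p = 0.0411) and by 0.25 in HFD M (exact permutation p = 0.18), neither past the threshold. The diet effect of Cdkn2b was -0.21 in females and 0.25 in males, a difference of -0.46 (SE 0.22, edgeR adjusted p = 0.733), past the unadjusted threshold. This call rested on few libraries: it held in 11 of 24 fits with 1 library left out, and without HFD M replicate 6 the difference was -0.32.

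Cdkn1b, the p27 inhibitor that is held mainly by protein degradation, showed no such pattern. It averaged between 54.8 CPM in CD F and 61.8 CPM in HFD+E2 M, and its largest difference, between CD F and CD M, was -0.14 (SE 0.14, exact permutation p = 0.34). Its groups overlapped in all 6 comparisons.

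Wee1 had its highest mean and its widest spread in HFD males. It ranged from 9.33 to 20.2 CPM in HFD M (median 13.4), against 8.6 to 12.1 CPM in CD M (median 9.48), 9.26 to 11.8 CPM in HFD+E2 M (median 9.78), 8.53 to 13.3 CPM in CD F (median 9.71) and 7.63 to 14.2 CPM in HFD F (median 10.5). Of the 6 HFD M libraries, 4 were above every CD M library, and the lowest lay inside the range of all other groups. Wee1 was higher in HFD M than in CD M by 0.53, or 1.44-fold (SE 0.18, edgeR adjusted p = 0.704; exact permutation p = 0.0303). With E2 it was lower than with vehicle by -0.51 on the log2 scale, or 0.70-fold (SE 0.18, edgeR adjusted p = 0.455; exact permutation p = 0.0325). These comparisons share the HFD M libraries, and HFD+E2 M stood at 0.03 against CD M (SE 0.13, exact permutation p = 0.697). Without HFD M replicate 1 the values were 0.40 and -0.37, and neither passed the fold limit. In females the diet difference was 0.09 (SE 0.17), and the interaction of -0.44 (SE 0.25, edgeR adjusted p = 0.743) missed the threshold.

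Wee1 was lower in libraries with more smooth muscle signal. After subtraction of the group means, Wee1 and the smooth muscle score correlated with r = -0.59 over the 30 libraries, which share depth and normalisation, with r from -0.73 to -0.44 within the 5 groups. The mean score was 9.47 in CD M, 9.19 in HFD M and 9.38 in HFD+E2 M (mean log2 CPM of the 10 markers). With the score as a covariate, the Wee1 difference was 0.33 between HFD M and CD M (SE 0.17) and -0.35 with E2 (SE 0.16), neither past the threshold. Between HFD F and HFD M it went the other way. There, Wee1 stood at -0.38 (SE 0.20), not past the threshold, and with the score at -0.47 (SE 0.17, edgeR adjusted p = 0.379), past it. Without the libraries that held squamous markers, Wee1 stood at 0.55 between HFD M and CD M and at -0.53 with E2 (SE 0.18 for both), past the threshold.

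**Figure D4:**
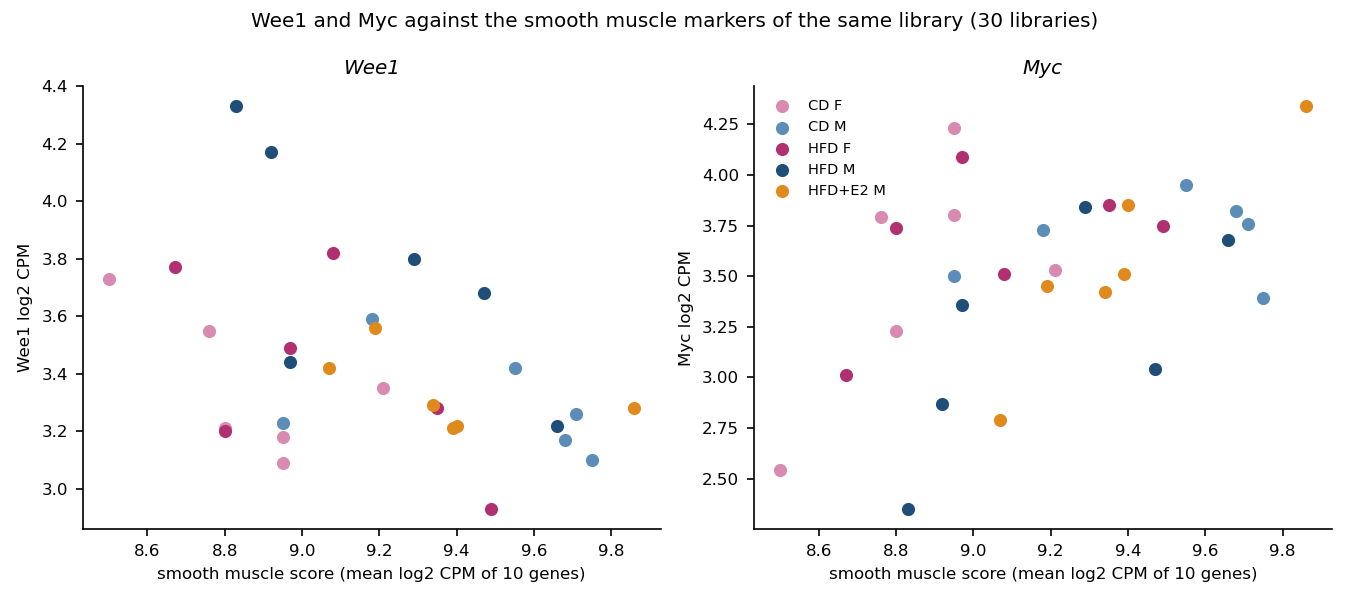
Log2 CPM of Wee1 (left) and Myc (right) against the smooth muscle score of the same library (mean log2 CPM of 10 marker genes), 1 point per library, coloured by group. Wee1 was lower and Myc higher at high scores (r = -0.59 and 0.58 after subtraction of the group means).

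As a clock output gene, Wee1 was also set beside 19 clock genes. From the same libraries, the study had already reported clock genes that differed by sex and diet, Ciart and Npas2 among them. All mice were killed at the same time of day, according to the methods of the study. Between HFD M and CD M, 5 of the 19 were higher and 2 lower, and between HFD+E2 M and HFD M 2 were higher and 2 lower. Over all genes tested, 2.9% and 5.87% passed in these comparisons. Tef, a PAR bZIP output factor of the clock, was higher in HFD M than in CD M (log2 fold change 0.57, SE 0.13, edgeR adjusted p = 0.389). With E2, Arntl (Bmal1) was higher than with vehicle (1.14, SE 0.34, edgeR adjusted p = 0.454) and so was Npas2, a paralog of Clock that pairs with Arntl (0.86, SE 0.29, edgeR adjusted p = 0.455). Across libraries within groups, Wee1 had r = 0.64 with Rora, and r = -0.62 with Npas2, -0.51 with Nr1d1 and -0.47 with Arntl (n = 30, group means subtracted). Of the 19 clock genes, 12 passed the threshold between CD F and CD M, with 4 higher and 8 lower in females, and 12 between HFD F and CD F, with 8 higher and 4 lower on HFD. After adjustment, 7 passed between CD F and CD M, among them Ciart at -2.61, Nfil3 at 1.64, Tef at -1.25 and Arntl at 1.16 (edgeR adjusted p of 0.000415, 0.00383, 0.00686 and 0.0254). Between HFD F and CD F 1 passed, Ciart at 2.67 (edgeR adjusted p = 0.0332). Over all genes tested, 9.15% passed the threshold between CD F and CD M and 2.92% the adjustment. Between HFD F and CD F these shares were 3.67% and 0.0199%. Wee1 differed by 0.06 between CD F and CD M (SE 0.14, exact permutation p = 0.675) and by 0.09 between HFD F and CD F (SE 0.17, exact permutation p = 0.712).

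Myc varied widely between mice of the same group, and in the edgeR fit reported here no comparison of it passed the threshold. Some alternatives did pass for HFD M against CD M: no filter on low counts (-0.44), log2(TPM + 0.1) (-0.47) and log2(TPM + 1) (-0.41). So did a fit with same-numbered libraries as a block (-0.50) and 3 of 12 fits with a library left out. For HFD F against HFD M, the block fit (0.47) and 3 of 12 fits with a library left out passed. Myc ranged from 5.11 to 14.3 CPM in HFD M (median 9.27), 10.5 to 15.5 CPM in CD M (median 13.4), 8.05 to 17.1 CPM in HFD F (median 13.4), 5.82 to 18.7 CPM in CD F (median 12.7) and 6.93 to 20.2 CPM in HFD+E2 M (median 11.2). Each group overlapped with all others. The log2 differences of HFD M were -0.43 against CD M (SE 0.21, exact permutation p = 0.0584), and HFD F and HFD+E2 M stood 0.43 (SE 0.24, exact permutation p = 0.108) and 0.37 (SE 0.26, exact permutation p = 0.26) above it. Myc was higher in libraries with a high smooth muscle score (r = 0.58 over 30 libraries after subtraction of the group means; from 0.20 to 0.93 within groups), the reverse of Wee1, and the r between Myc and Wee1 was -0.53. With the score as a covariate, Myc stood at 0.56 between HFD F and HFD M (SE 0.21, edgeR adjusted p = 0.395), past the threshold, at -0.30 between HFD M and CD M (SE 0.21) and at 0.09 with E2 (SE 0.20), neither past it.

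Of 14 Myc targets, mostly genes of ribosome synthesis and polyamine metabolism, 2 were lower in HFD M than in CD M: Srm, the spermidine synthase (log2 fold change -0.72, SE 0.24, edgeR adjusted p = 0.716), and Nolc1, a nucleolar protein (-0.50, SE 0.18, edgeR adjusted p = 0.756). The median of the list was -0.26, beside -0.01 for all genes tested, of which 2.9% passed the threshold. Srm was also higher with E2 than with vehicle (0.45, SE 0.19, edgeR adjusted p = 0.466) and higher in HFD F than in HFD M (0.63, SE 0.17, edgeR adjusted p = 0.682), and in each of these comparisons it was the only target of 14 past the threshold. Over all genes 5.87% and 3.09% passed there, and the list medians were 0.03 and 0.15. A single call of 14 is thus no result about the targets as a set. Srm lay between 3.69 and 4.79 CPM in HFD M and averaged between 5.52 and 6.54 CPM in the other groups. Of the 12 partners and antagonists of Myc (Max, the Mxd and Mlx families and others), 2 were higher with E2 (Mycl 0.40 and Mnt 0.53, edgeR adjusted p of 0.455 and 0.478), 1 was lower in HFD+E2 M than in CD M (Mxd3 -0.75, edgeR adjusted p = 0.414), and none passed in the 4 pairwise comparisons of sex or diet.

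Several genes that act after the D cyclins were lower with E2. From the same libraries, the study had already reported cell cycle and proliferation genes among those regulated by E2, naming Cdk1 and Mki67. Over all genes tested, 5.87% passed the threshold between HFD+E2 M and HFD M, and 0.00666% passed the adjustment. Of 10 other cyclins and CDKs, 4 were lower in HFD+E2 M than in HFD M and none was higher: Ccnb1, Ccnb2, Ccna2 and Cdk1, all of which drive S phase, G2 and mitosis. Ccnb1, the main mitotic cyclin, was at 2.16 to 5.11 CPM in HFD+E2 M and at 4.15 to 16.2 CPM in HFD M, a log2 fold change of -1.26 (SE 0.32, edgeR adjusted p = 0.421), and Ccnb2 stood at -0.82 (SE 0.21, edgeR adjusted p = 0.421). Of 11 S phase and proliferation genes, 3 were lower with E2 and none higher, led by Top2a, the topoisomerase of dividing cells (-0.85, SE 0.20, edgeR adjusted p = 0.389), and Mki67, the proliferation marker (-0.57, SE 0.22, edgeR adjusted p = 0.461). The medians of these lists were -0.23 and -0.16, beside 0.00 for all genes. In the same comparison 3 of 7 goblet cell and 2 of 7 macrophage markers were higher, and 1 of the 2 squamous markers tested was lower; their part in these differences was not tested. Of 7 regulators of the Cdk1 switch on which Wee1 acts, 3 were lower with E2 (Chek2 -0.52, Chek1 -0.47 and Plk1 -0.58; edgeR adjusted p of 0.455, 0.482 and 0.485). Plk1 is named outside the rule for named genes, after its value was seen, as are Ccna2 and Cdk1.

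Against CD M, the same directions were seen in HFD+E2 M, where 5.99% of all genes tested passed the threshold. Of the other cyclins and CDKs 4 of 10 were lower, with Ccnb1 past the adjustment (log2 fold change -1.35, SE 0.27, edgeR adjusted p = 0.0481), and of the S phase genes 5 of 11 were lower (Top2a -0.95, SE 0.21, edgeR adjusted p = 0.0687; Rrm2 -0.88, SE 0.32, edgeR adjusted p = 0.315). Plk1 stood at -1.11 and Cdc25c, the phosphatase that undoes the mark set by Wee1, at -0.91 (edgeR adjusted p = 0.121 and 0.406). The repressor E2Fs were lower as well (E2f8 -1.02 and E2f7 -0.88; edgeR adjusted p of 0.287 for both). The median of the S phase list was -0.54, beside 0.00 for all genes. HFD+E2 M is shared by this comparison and that with vehicle. Of 5 adipocyte markers tested, 3 were higher in HFD+E2 M than in CD M, and their part in these differences was not tested. Between HFD M and CD M, 2.9% of all genes passed. There, none of the other cyclins and CDKs and 1 of 11 S phase genes passed (Mcm4, a subunit of the replicative helicase, -0.55, SE 0.18, edgeR adjusted p = 0.704), although Ccnd1 and Ccnd2 were lower in that comparison. All 11 S phase genes had a log2 fold change below 0 there, with a list median of -0.22, and the medians were -0.09 for the other cyclins and CDKs and -0.36 for the Cdk1 switch, beside -0.01 for all genes. Of 10 Wnt targets tested in that comparison, 9 pointed down and 1 up, with a median of -0.20. Only Ascl2 passed the threshold (-0.74, SE 0.25, edgeR adjusted p = 0.704).

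**Figure D5:**
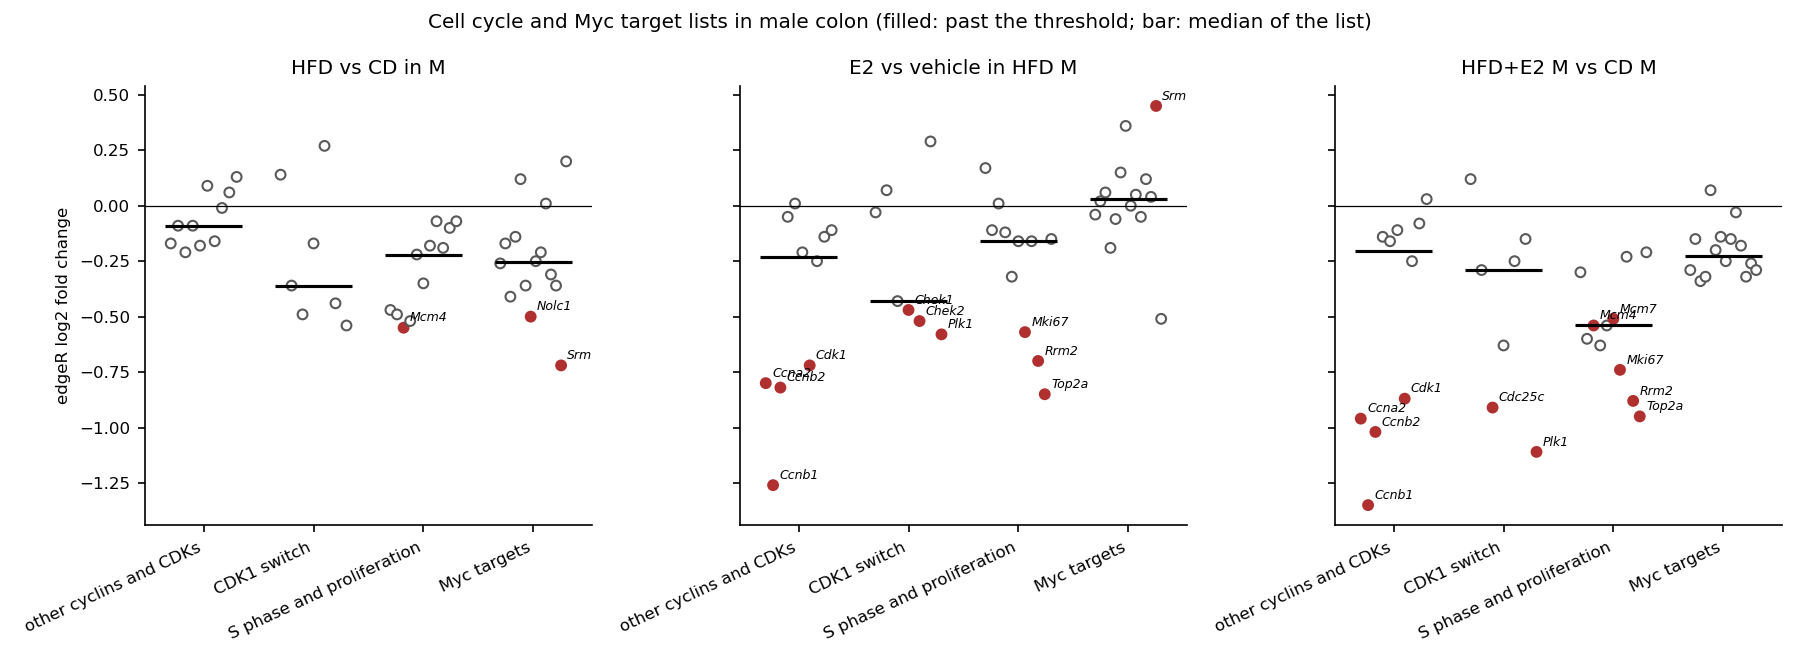
Log2 fold change (vertical axis, edgeR) of the genes of 4 lists in the 3 comparisons among males; filled points passed the threshold and bars mark list medians. With E2, 4 of 10 other cyclins and CDKs and 3 of 11 S phase genes were lower and none was higher, where 5.87% of all genes passed.

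Fewer genes of these lists passed in the comparisons of sex and of diet. Over all genes tested, 9.15% passed between CD F and CD M and 3.67% between HFD F and CD F. Between CD F and CD M, no gene of the other cyclins and CDKs, S phase, Myc target, Myc network or degradation lists passed the threshold, while, of 10 Wnt targets tested, 1 was lower and Lgr5, the crypt stem cell receptor, was higher in females (log2 fold change 0.53, SE 0.14, edgeR adjusted p = 0.0472) and Phlda3, a p53 target, was lower (-0.64, SE 0.21, edgeR adjusted p = 0.122). Phlda3 was thus opposite to Cdkn1a, the p53 target among the members, and of the 14 p53 genes tested it was the only one past the threshold. In the same comparison, E2f7 (-0.79, SE 0.30, edgeR adjusted p = 0.196), E2f8 (-0.79, SE 0.36, edgeR adjusted p = 0.322) and Plk1 (-0.54, SE 0.25, edgeR adjusted p = 0.329) were lower in females. Of the 13 Rb and E2F genes, E2f7 and E2f8 were the 2 lower ones, and 1 was higher, E2f2 (0.53, SE 0.25, edgeR adjusted p = 0.332), an activator E2F named after its value was seen. On HFD in females, Cd44, a Wnt target, and Phlda3 were higher (0.92 and 0.82, edgeR adjusted p of 0.412 and 0.535) and E2f2 was lower (-0.81, edgeR adjusted p = 0.55). Cd44 went against its list there: 8 of the 10 Wnt targets tested pointed down, with a median of -0.15. The 14 p53 genes tested were split, with 7 up and 7 down. Squamous markers were high in 4 of the 6 HFD F libraries, and their part in these differences was not tested. Of the 4 other CDK inhibitors, 3 were tested (Cdkn1c, Cdkn2c and Cdkn2d) and none passed in any comparison by edgeR. Skp2, Fbxw7 and 6 further genes of cyclin and p27 degradation gave 1 call, Cks1b in HFD+E2 M against CD M (-0.90, SE 0.33, edgeR adjusted p = 0.319).

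Between libraries of the same group, the 10 members did not vary as a block. Over their 45 pairs, r after subtraction of the group means ran from -0.53 (Myc and Wee1) to 0.40 (Ccnd2 and Wee1), and Ccnd1 and Ccnd2 had r = 0.10. Between D cyclins and inhibitors, r was -0.50 for Ccnd2 and Cdkn2b, -0.38 for Ccnd1 and Cdkn1a, 0.14 for Ccnd1 and Cdkn2b and -0.33 for Ccnd2 and Cdkn1a. The genes whose level ran closest to a member over the 30 libraries, group means subtracted, were Ngfr for Ccnd1 (r = 0.75), Itga6 for Ccnd2 (0.72), Fem1a for Ccnd3 (0.84), Gart for Cdk4 (0.78), Gpr157 for Cdk6 (0.72), Mxi1 for Cdkn1a (0.70), Gm15787 for Cdkn1b (0.82), Kcnj5 for Cdkn2b (0.66), Rpl7 for Wee1 (0.82) and Wnk4 for Myc (0.93). For Myc the next 2 were Cc2d1a and Gltscr2, both with r = 0.91. These are descriptions over libraries that share normalisation and tissue make-up.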

How the data were processed

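Total RNA from mouse colon was depleted of ribosomal RNA and sequenced in 30 libraries. According to the study's methods and the submitters' processing notes, reads were demultiplexed with bcl2fastq 2.19.1.403 and CASAVA, trimmed with Trim Galore and aligned with STAR to mm10 (GRCm38). The deposited counts are raw reads per gene made by the authors with featureCounts, and the deposited TPM values were made by the authors with StringTie. Other tool versions and the strand setting of the counting were not given in the sources used here.

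The groups come from the sample labels. Genes were tested with edgeR 4.0.16 in R 4.3.3 (filterByExpr, TMM, robust quasi-likelihood fit) on the 12 libraries of each pairwise comparison, and on 24 for the interaction of sex and diet. The threshold was an unadjusted p under 0.05 with an absolute log2 fold change over 0.4, and Benjamini-Hochberg adjustment ran over all genes tested. Levels are CPM with a prior count of 2, scaled over the 30 libraries. Values of 6 against 6 libraries were also compared by a two-sided exact permutation test. Marker scores are means of log2 CPM. Alternatives were DESeq2 1.42.0, other normalization and filters, a replicate block, covariates, each library left out in turn, and limma 3.58.1 on log2(TPM + 0.1) and log2(TPM + 1). Leaving out libraries rich in squamous markers was added after seeing the data. The fit was tested on simulated data.

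The 10 genes and the gene lists were chosen with earlier results of these data known. In each pathway list and comparison, a rule picked up to 4 genes with an adjusted p under 0.05 and the largest change. Where there was none, it picked up to 2 past the threshold with the lowest p. For each of the 10 genes, it picked the genes with the highest r, up to 3. Not every picked gene is named above. Left out were, among others, E2f7 (-0.60) and Trp53inp1 (0.48) for HFD M against CD M, and Tcf7 (0.52) for HFD F against HFD M. For E2, Tcf7 (0.64), E2f5 (-0.48), Plk2 (-0.47) and Trp53inp1 (-0.44) were left out, and for the interaction Mcm7 (0.49) and Mlx (-0.44). Promoter windows came from RefSeq (GRCm38.p6). 1 gene of the clock list is not reported here.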

Additional observations from a re-analysis of the deposited data

Results flagged for a closer look

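Cdkn2b in HFD M replicate 6 stood at 23.8 CPM, apart from the other 5 libraries of its group by Dixon's criterion. It was the 1 such value among 50 groups of 6 libraries, where about 2.5 would be met by chance at 1 in 20.

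In the interaction test of edgeR, the HFD effect in females minus that in males was 0.59 for Ccnd1, 0.60 for Ccnd2 and -0.46 for Cdkn2b on the log2 scale, each past the unadjusted threshold and none past the adjustment (adjusted p of 0.458, 0.41 and 0.733).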

How the results depend on the processing

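Of 1680 log2 fold changes of the 10 genes under alternatives, 1605 stayed on the same side of the threshold, 38 came to pass it, 35 no longer passed it and 2 came to pass it in the opposite direction: Ccnd3 with E2, at -0.49 on log2(TPM + 0.1) and -0.44 on log2(TPM + 1). The cause was not tested. Of the 1680 values, 97 changed sign, each with an edgeR value of at most 0.21 in size.

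Larger changes in the counts of the 10 genes past the threshold, given as reported and then as changed, were as follows. F against M on CD: 2, and 4 with no fold limit. F against M on HFD: 0, and 1 with no fold limit or with the replicate block and 2 with the smooth muscle score. E2 against vehicle: 1, and 0 with the smooth muscle score and 2 with no fold limit. Interaction: 3, and 5 with the replicate block and 1 without the libraries rich in squamous markers. After adjustment, F against M on CD gave 2, and 1 with the smooth muscle and 0 with the B cell score. HFD against CD in M gave 0, and 1 with DESeq2 or with all 30 libraries in one fit. HFD+E2 M against CD M gave 1, and 3 with DESeq2 and 2 with no filter, the replicate block, or the squamous or smooth muscle score. Smaller changes in these counts are not all listed. For HFD against CD in M, Myc came to pass the threshold with the replicate block (-0.50) or no filter (-0.44). Wee1 no longer passed it there with the smooth muscle score (0.33). For F against M on CD, DESeq2 added an adjusted call of Cdkn1a (adjusted p = 0.0181).

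Genes past the threshold without a filter on low counts were 2253 (F against M on CD, 1366 as reported), 1165 (F against M on HFD, 469), 1496 (HFD against CD in F, 553), 1056 (HFD against CD in M, 434), 1805 (E2, 881), 1736 (HFD+E2 M against CD M, 905) and 1543 (interaction, 818). With no fold limit the first 6 were 2207, 773, 856, 904, 1535 and 1622. DESeq2 gave 730 for F against M on HFD and 1018 for HFD against CD in F. Without the libraries rich in squamous markers, E2 gave 530 and the interaction 332.

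With each library left out in turn, genes past the threshold ranged from 1223 to 1684 (F against M on CD), 363 to 770 (F against M on HFD, highest without HFD F replicate 2), 481 to 827 (HFD against CD in F), 346 to 706 (HFD against CD in M, highest without CD M replicate 1), 557 to 1497 (E2, lowest without HFD M replicate 2, highest without HFD+E2 M replicate 1), 754 to 1239 (HFD+E2 M against CD M) and 641 to 1418 (interaction, highest without HFD F replicate 2). Members past the threshold ranged from 1 to 3, 0 to 2, 0 to 0, 1 to 4, 0 to 2, 3 to 3 and 2 to 4 in that order, and after adjustment from 1 to 2 in the first, 0 to 1 in the sixth and 0 to 0 in the rest.

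Same-numbered libraries had r over 0.1 in 5 of 6 pairs for F against M on CD and for HFD against CD in M. In the other comparisons it was 1 to 3 of 6. The labels do not say that the numbers pair libraries, and the reported fits did not pair them. With the replicate block, genes past the adjustment went from 435 to 941 (F against M on CD), 15 to 10, 3 to 12, 0 to 2, 1 to 7, 32 to 79 and, for the interaction, 0 to 1. With DESeq2 they were 776, 50, 215, 26, 38, 239 and 7. Of the 30 genes named as closest to a member, 7 were also among the closest without subtraction of the group means.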
